A study of Mus musculus with 32 samples.

Results

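Collagen genes were followed in 32 primary mouse melanomas by sequencing of polyadenylated RNA. The members were all genes whose GENCODE mouse symbol is Col, a number, the letter a and a number, which gave 44 of the 50600 genes in the deposited tables. They comprised 11 fibrillar, 9 FACIT, 6 basement membrane, 6 beaded filament, 4 transmembrane, 3 hexagonal network-forming and 2 multiplexin genes, 1 anchoring fibril gene (Col7a1) and 2 others (Col26a1, Col28a1). All mice carried Tyr::NrasQ61K, an activated Nras driven in melanocytes by the tyrosinase promoter, 1 inactive copy of the tumour suppressor Cdkn2a (Cdkn2a-/+) and floxed Cdh1, the E-cadherin gene (Cdh1F/F). Ecad tumours came from mice without Cre. ΔEcad tumours came from mice for which the study's methods name Tyr::CreA, so that Cdh1 is deleted in melanocytes and not in other cells of the tumour, whereas the genotype label names Tyr::NRAS/° in that position. The lines had been backcrossed to C57BL/6J. The labels gave 8 tumours for each genotype and sex, and the age of the mice is not given in the sources used here. The comparisons ask whether loss of E-cadherin in melanocytes goes with other collagen RNA levels in either sex.

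Collagens are secreted or membrane proteins whose chains wind into a triple helix. Fibrillar collagens, above all types I, III and V, are made mainly by fibroblasts and form the tension-bearing fibres of the dermis. FACIT collagens sit on the surface of fibrils, collagen IV forms the sheet of basement membranes, collagen VI forms beaded filaments, and collagens VII and XVII tie the epidermis to the dermis below it. The melanomas are bulk tissue, so fewer cells of a type and less RNA per cell cannot be told apart.

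Total counts ranged from 24036333 to 63923086 per tumour, and the labels do not say whether the tumours of a group came from separate mice, so p-values measure the spread between these tumours. Cdh1, the targeted gene, had a mean ± SD (n = 8 per group) of 146 ± 87.5 TPM for Ecad and 13.05 ± 21.7 TPM for ΔEcad tumours in males, and of 50.5 ± 52.9 and 55.2 ± 54.1 TPM in females. On the log2 scale ΔEcad differed from Ecad by -3.33 in males and by -0.0024 in females (SE 0.956 and 0.873, edgeR adjusted p 0.365 and 0.999). Cdh1 RNA thus gave no separation of the female tumours by label, and what is written here of female genotypes follows the labels alone. Bulk RNA includes other cells, where Cdh1 is not deleted, so by itself it cannot show in either sex whether melanocytes had lost Cdh1. Of the 12 tumours richest in keratinocyte marker RNA, 5 were Ecad males, 2 ΔEcad males, 5 ΔEcad females and 0 Ecad females. The part of keratinocytes in the Cdh1 levels was not tested. The melanocytic marker RNA that defines this tumour type (8 genes) summed to at least 5885 TPM in 31 tumours, and to 31.8 TPM in the library labelled ΔEcad male 7. The library labelled ΔEcad male 2 held 0 counts over 4 Y-linked genes, against 1459 to 8800 in the other 15 males. ΔEcad female 3 had the lowest RNA of all 8 endothelial markers, and 5 of 5 red blood cell genes were at 0 counts. Where these 3 tumours moved a result, its value without them is given beside it.

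The mouse genome places the 6 collagen IV genes as pairs that start next to each other on opposite strands. On GRCm38, Col4a4 starts at chr1:82586849 on the minus strand and Col4a3 at 82586921 on the plus strand. Col4a1 (chr8:11198423-11312826, minus) and Col4a2 (chr8:11312805-11449287, plus) overlap at their starts, and Col4a6 (chrX:141165403-141474076, minus) lies 1309 bases from the start of Col4a5 (chrX:141475385-141689234, plus). The sequences that follow are shown because the results turn on these genes: the 71 bases between Col4a4 and Col4a3, and the stretches before the starts of Col4a6, Col4a5, Col17a1 and Col3a1. They come from RefSeq (GRCm38.p6), each is written 5′ to 3′ on the strand of its gene (the shared stretch on the minus strand), and capitals mark matches, on either strand, to the CCAAT box, the GC box (GGGCGG), the TATA box (TATAAA) and the AP-1 motif (TGACTCA).
Col4a4-Col4a3 (chr1:82586850-82586920, minus): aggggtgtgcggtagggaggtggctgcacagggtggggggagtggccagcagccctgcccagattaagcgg
Col4a6 (chrX:141474077-141474326, minus): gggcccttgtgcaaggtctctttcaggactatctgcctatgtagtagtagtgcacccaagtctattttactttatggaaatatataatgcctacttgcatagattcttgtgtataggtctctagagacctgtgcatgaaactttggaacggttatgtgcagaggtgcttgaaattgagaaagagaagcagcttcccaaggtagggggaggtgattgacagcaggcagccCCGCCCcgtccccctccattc
Col4a5 (chrX:141475169-141475384, plus): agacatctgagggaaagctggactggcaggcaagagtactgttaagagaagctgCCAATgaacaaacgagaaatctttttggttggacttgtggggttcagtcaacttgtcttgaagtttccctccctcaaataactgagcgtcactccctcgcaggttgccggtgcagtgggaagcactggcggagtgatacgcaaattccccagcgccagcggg
Col17a1 (chr19:47692095-47692292, minus): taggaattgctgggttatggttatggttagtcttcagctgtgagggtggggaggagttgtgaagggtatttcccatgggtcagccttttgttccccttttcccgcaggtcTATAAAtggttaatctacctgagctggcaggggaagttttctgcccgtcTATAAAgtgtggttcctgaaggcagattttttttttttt
Col3a1 (chr1:45311288-45311537, plus): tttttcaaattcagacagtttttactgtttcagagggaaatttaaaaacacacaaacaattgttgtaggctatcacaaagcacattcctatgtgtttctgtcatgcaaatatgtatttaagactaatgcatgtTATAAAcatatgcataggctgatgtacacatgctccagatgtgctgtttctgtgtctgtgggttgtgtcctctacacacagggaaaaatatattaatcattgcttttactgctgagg
The stretch between Col4a4 and Col4a3 had 69.0% G and C and held none of these motifs. The other stretches held 1 GC box before Col4a6 (on the opposite strand, so read as CCGCCC), 1 CCAAT box before Col4a5, 2 TATA boxes before Col17a1 and 1 before Col3a1. Over windows of 300 bases around gene starts, a GC box was in 60.5% of 38 windows of 35 collagen genes and in 35.7% of all 32851 windows, a CCAAT box in 34.2% against 37.4%, and a TATA box in 13.2% against 13.6%. The AP-1 motif was in 1 collagen window (2.63%) and in 5.2% of all. A match is a description of the letters only.

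Levels are given in TPM, which is scaled for gene length and so allows genes to be compared. Of the 44 genes, 9 had a mean of at least 100 TPM over the 32 tumours, 10 lay from 10 to 100, 15 from 1 to 10 and 10 under 1 TPM. The 10 highest held 82.8% of the summed collagen TPM (mean over tumours). The order began with Col1a1, the alpha 1 chain of collagen I, at a mean of 617 TPM, followed by Col3a1 (401), Col1a2 (254), Col6a1 (245), Col16a1 (212), Col5a3 (195), Col4a1 (149), Col18a1 (136), Col4a2 (129) and Col6a2 (95.1 TPM). The SDs over tumours ranged widely around these means, for example 844 TPM for Col1a1, 554 for Col3a1, 131 for Col16a1 and 79.3 TPM for Col4a1. Within tumours the order was steady in places only: Col1a1 lay above Col3a1 in 27 of 32 tumours, Col3a1 above Col1a2 in 30 and Col4a2 above Col6a2 in 27, whereas the other neighbours in this order lay above the next in 12 to 23 of 32. At the low end, Col19a1, a FACIT collagen, was at 3 counts or fewer in 31 of 32 tumours, and Col26a1 in 22. A count of 0 allows up to 3 counts, and such floors cover counting error only. Another 26 genes were over 3 counts in all 32 tumours. The heat map of all 44 genes shows the same few rows high in nearly every column.

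**Figure D1:**
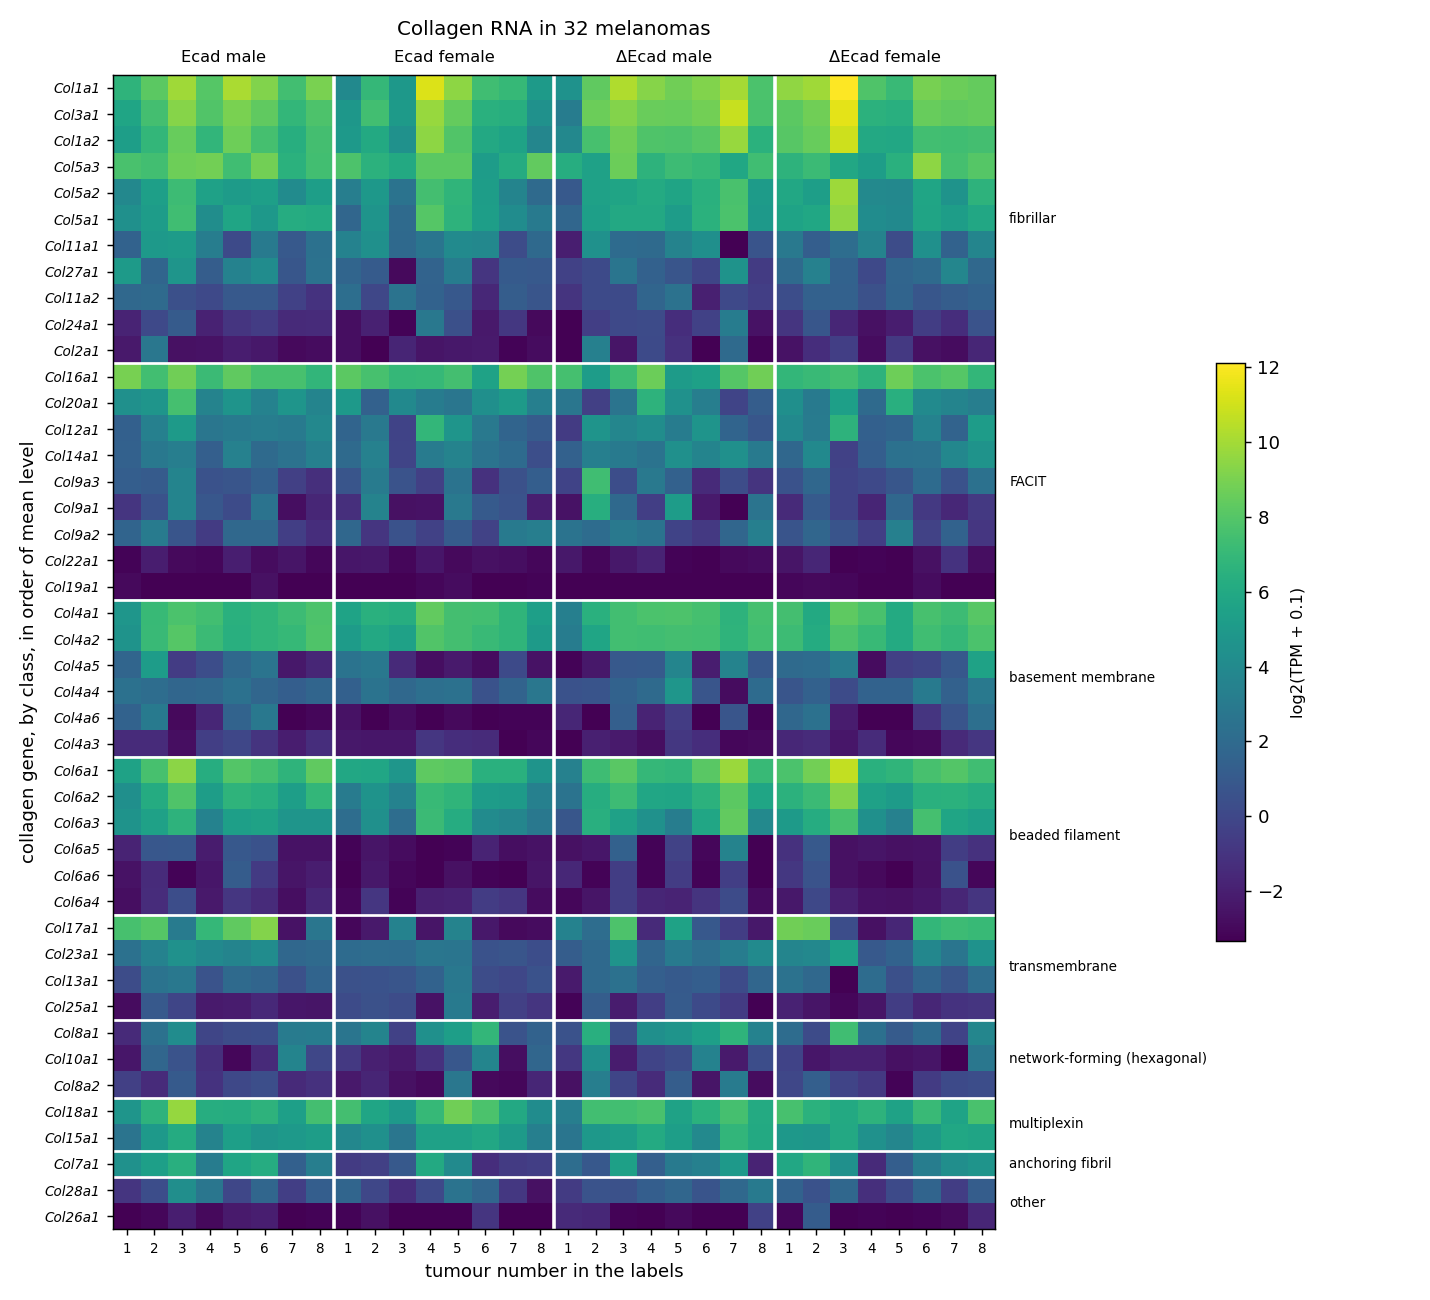
RNA level of the 44 collagen genes (rows, grouped by class and ordered by mean level within it) in 32 tumours (columns, 8 per group, numbered as in the labels), as log2(TPM + 0.1) on a colour scale. Col1a1, Col3a1, Col1a2 and Col5a3 are bright in most columns, Col17a1 is bright or dark depending on the tumour, and ΔEcad female 3 holds the brightest cell, Col1a1 at 4361 TPM.

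The fibrillar genes took the largest share of collagen RNA, a median of 48.4% of the summed collagen TPM (27.4% to 74.9%). Their summed level had a lowest, median and highest tumour of 477, 1169 and 2734 TPM in Ecad males against 129, 1368 and 4209 in ΔEcad males. In females it was 170, 433 and 4771 TPM with Ecad and 413, 1421 and 10821 TPM with ΔEcad tumours. All 4 groups overlapped widely. The mean of the ΔEcad females was 2444 ± 3433 TPM (SD, n = 8), and 1247 ± 622 TPM (SD, n = 7) without ΔEcad female 3, against 1109 ± 1568 TPM (SD, n = 8) in Ecad females. Col1a1 itself had a lowest, median and highest tumour of 102, 402 and 1122 TPM in Ecad males, 22.9, 507 and 1213 in ΔEcad males, 15.9, 127 and 2473 in Ecad females and 141, 440 and 4361 TPM in ΔEcad females. Col3a1, whose homotrimer co-assembles with collagen I, had 54.2, 227 and 618 TPM, then 8.90, 385 and 1810, then 22.1, 85.0 and 845, and then 83.6, 334 and 2818 TPM in the same order of groups. For both genes the Ecad females had the lowest median together with a single tumour, Ecad female 4, above all others of that group.

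**Figure D2:**
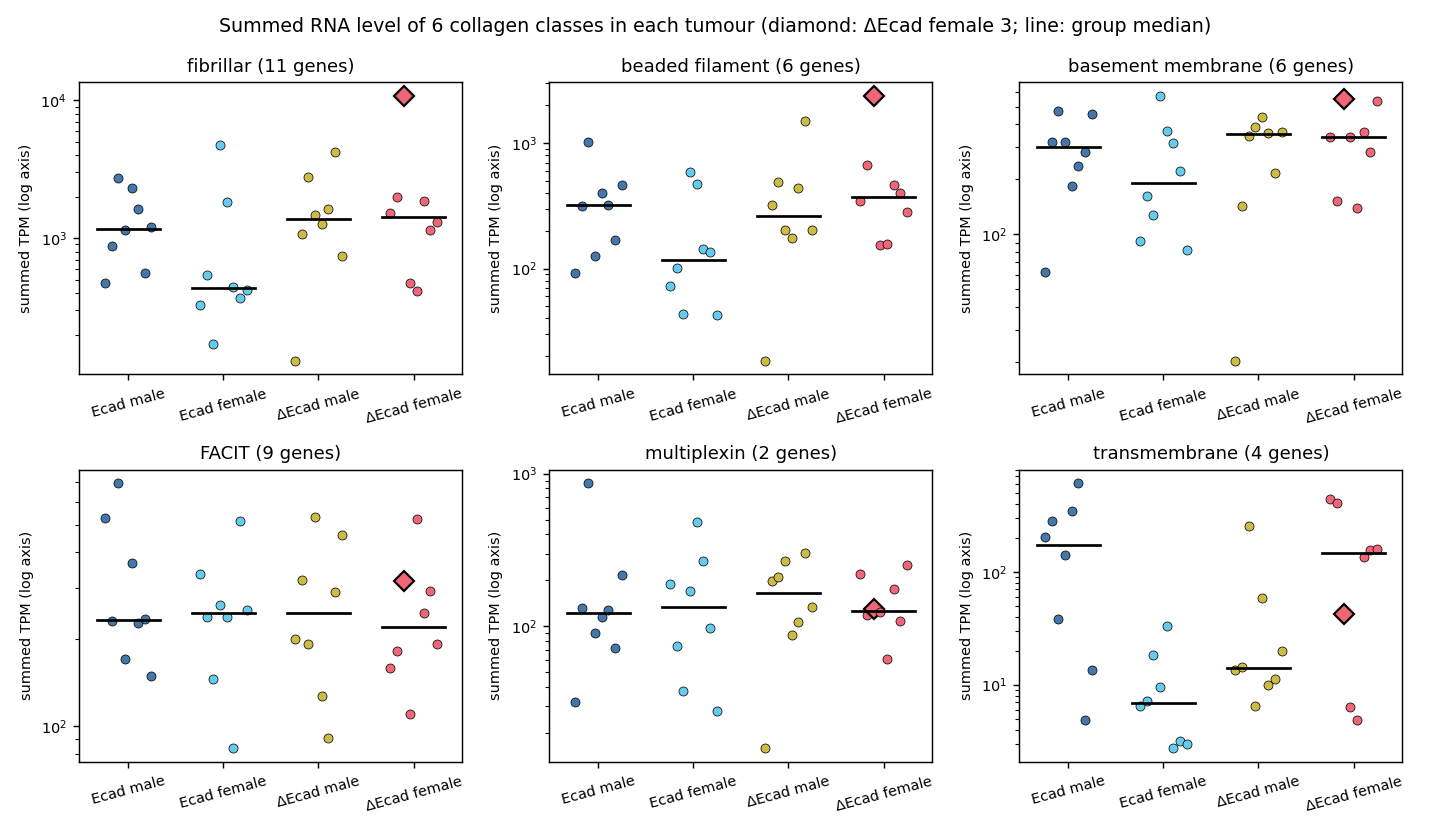
Summed TPM (log axis) of 6 collagen classes in each tumour, 1 point per tumour in 4 groups of 8, with a line at the group median and a diamond for ΔEcad female 3. The groups overlap in every class; ΔEcad female 3 lies highest for the fibrillar sum (10821 TPM) and not for the transmembrane sum, where Ecad females reach at most 33.3 TPM.

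Other fibrillar genes were lower and not all followed type I. Col5a1 and Col5a2, which set the diameter of collagen I fibrils, had means of 78.4 and 79.2 TPM. Col5a3 had a mean of 195 TPM and was highest in ΔEcad female 6 (702 TPM) and only 59.2 TPM in ΔEcad female 3, which ranked 28 of 32. Col2a1, the collagen of cartilage, was at or under 3 counts in 10 tumours and reached 6.78 TPM in Ecad male 2 and 10.4 TPM in the library labelled ΔEcad male 2. Of the rest, Col11a1 (mean 9.39 TPM), Col27a1 (6.31), Col11a2 (2.02) and Col24a1 (0.980 TPM) were minor.

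Type I and III fibrillar genes and the first collagen VI chains moved together across tumours on the log2 CPM scale. Over 32 tumours, Col1a1 followed Col1a2 with a Pearson r of 0.959 (Spearman's rho 0.975) and Col3a1 with 0.938 (rho 0.923), and Col6a1 followed Col6a2 with 0.969 (rho 0.971). Each had an adjusted permutation p of 1.8e-05 over 9 relations, from 1e-05, the smallest that 100000 two-sided permutations can give. Without the 2 tumours farthest from the median the r values were 0.951, 0.930 and 0.988, and on deviations from the group means 0.955, 0.930 and 0.965. The genes share their libraries, so common shifts of a tumour enter every such value.

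The ratio of chains varied far less than the level. Col1a1 over Col1a2, which join as 2 to 1 in collagen I, had a median of 2.50 in TPM, and 31 of 32 tumours lay between 1.26 and 3.65. The exception was Ecad female 1 at 0.513, the tumour with the lowest Col1a1. The same tumour had the highest Col6a1 over Col6a2, 7.10 against at most 3.14 in the others, the lowest Col6a3 over Col6a1 (0.0751, median 0.186) and the highest Col3a1 over Col1a1 (1.77, median 0.635). Across tumours, Col1a1 spanned 274-fold, and its ratio to Col1a2 7.11-fold.

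Collagen IV genes split into pairs with different behaviour. Col4a1 and Col4a2, the chains of the common basement membrane network, had means of 149 and 129 TPM and an r of 0.968 (rho 0.939, adjusted permutation p 1.8e-05), 0.946 without the 2 farthest tumours. Their ratio stayed between 0.819 and 1.69. Col4a3 and Col4a4, whose starts are 72 bases apart, had an r of 0.224 (rho 0.133, adjusted permutation p 0.241 and 0.465), which was -0.115 without the 2 farthest tumours. Col4a3 had a mean of 0.220 TPM and was at or under 3 counts in 5 tumours, against 4.22 TPM for Col4a4, and a relation was not detectable at this depth. Col4a5 and Col4a6 lay between, with an r of 0.667 (rho 0.670, adjusted permutation p 6e-05 for both) and 0.620 without the 2 farthest tumours. Col4a5, with Col4a6 a chain of epithelial and smooth muscle basement membranes, had a mean of 5.10 TPM and up to 46.7 TPM in ΔEcad female 8. Genes of the first pair overlap each other on opposite strands and no source used here says that reads were counted by strand, so those from their shared start could be counted for either.

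**Figure D3:**
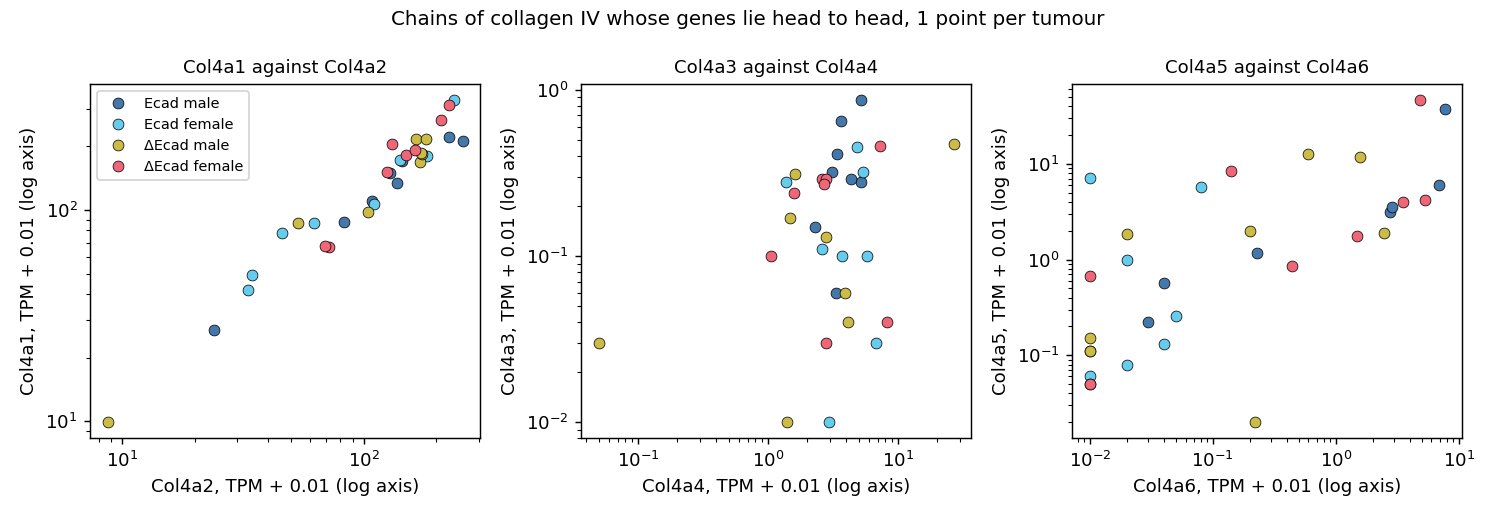
TPM + 0.01 (both axes log) of the collagen IV genes that start next to each other, 1 point per tumour coloured by group. Col4a1 and Col4a2 lie along a line over 32 tumours, Col4a3 and Col4a4 do not, and many points of Col4a6 lie at the left edge, where it has 3 counts or fewer (14 of 32 tumours).

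Collagen VI RNA was led by Col6a1 (mean 245 TPM), Col6a2 (95.1) and Col6a3 (55.8), which form its filament. Col6a5 and Col6a6, chains that can take the place of Col6a3, were low, at means of 0.828 and 0.287 TPM, as was Col6a4 (0.282 TPM). The 6 genes summed to a median of 319 TPM for Ecad and 262 for ΔEcad tumours in males, and of 118 and 372 TPM in females, with overlapping ranges. The FACIT genes were mostly Col16a1, with a median of 182 TPM (35.1 to 496 TPM). Col20a1 had a mean of 25.0 TPM and Col12a1, which decorates collagen I fibrils, 16.8 TPM. Col14a1, of the same kind as Col12a1, had a mean of 8.11 TPM, the collagen IX genes Col9a3, Col9a1 and Col9a2 had 7.5, 5.71 and 3.36 TPM, and Col22a1, found at tissue junctions, had 0.0694 TPM. Col20a1 stood at 190 TPM in Ecad male 3 and at most at 26.6 TPM in the other Ecad males. The multiplexins Col18a1, the source of endostatin, and Col15a1 had means of 136 and 36.4 TPM, and Col18a1 was highest in Ecad male 3 (798 TPM). Among the hexagonal network formers, Col8a1 ranged from 0.250 to 162 TPM. Col8a2 and Col10a1, the latter a marker of hypertrophic cartilage, had means of 1.32 and 2.53 TPM. Col28a1 and Col26a1 had means of 2.70 and 0.143 TPM.

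Col17a1, the transmembrane collagen of hemidesmosomes (ENSMUSG00000025064, chr19:47646344-47692094, minus strand), ranged from 0.02 to 590 TPM among the tumours. Its lowest, median and highest values were 0.07, 161 and 590 TPM in Ecad males, 0.1, 3.14 and 222 in ΔEcad males, 0.02, 0.09 and 11.7 in Ecad females and 0.06, 125 and 423 TPM in ΔEcad females. High and low tumours occurred in 3 groups, and in Ecad females no tumour passed 11.7 TPM. Col17a1 moved with keratinocyte RNA. Over 32 tumours its r with the mean log2 CPM of 11 keratinocyte markers was 0.975 (rho 0.934, adjusted permutation p 1.8e-05 for both), 0.974 without the 2 farthest tumours, and 0.995, 0.956, 0.945 and 0.976 within Ecad males, ΔEcad males, Ecad females and ΔEcad females (n = 8 each). The 12 tumours with the most keratinocyte marker RNA (2500 TPM or more, summed over the 11 genes) had Col17a1 at 46.5 to 590 TPM, and the other 20 (1828 TPM or less) at 0.02 to 11.7 TPM. Of these 12, 5 were Ecad males, 2 ΔEcad males, 5 ΔEcad females and 0 Ecad females.

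Col4a6 (ENSMUSG00000031273) followed the same tumours. It was at 0.220 to 7.66 TPM in the 12 tumours rich in keratinocyte RNA. In the other 20 it reached 1.57 TPM in ΔEcad male 7 and no more than 0.210 TPM elsewhere. By group it had a lowest, median and highest value of 0, 1.49 and 7.66 TPM in Ecad males, 0, 0.2 and 2.47 in ΔEcad males, 0, 0.01 and 0.07 in Ecad females and 0, 0.960 and 5.33 TPM in ΔEcad females. At or under 3 counts were 3, 3, 6 and 2 tumours of 8 in these groups, and no Ecad female held more than 11 counts. Col7a1, the anchoring fibril collagen, was also high in some tumours with little keratinocyte RNA. It stood at 64.7 TPM in Ecad female 4, 31.1 TPM in ΔEcad male 7 and 21.1 TPM in ΔEcad female 3, whose keratinocyte sums were 0.680, 8.35 and 4.10 TPM. The transmembrane collagens Col13a1 and Col25a1 had means of 2.77 and 0.778 TPM. Col23a1 (ENSMUSG00000063564, chr11:51289920-51583918, plus strand), of the same class, had medians of 11.9, 6.35, 4.19 and 13.3 TPM in the 4 groups in the same order and a highest value of 41.0 TPM in ΔEcad female 3. The part of keratinocytes in these levels was not tested beyond the covariate given with the comparisons.

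**Figure D4:**
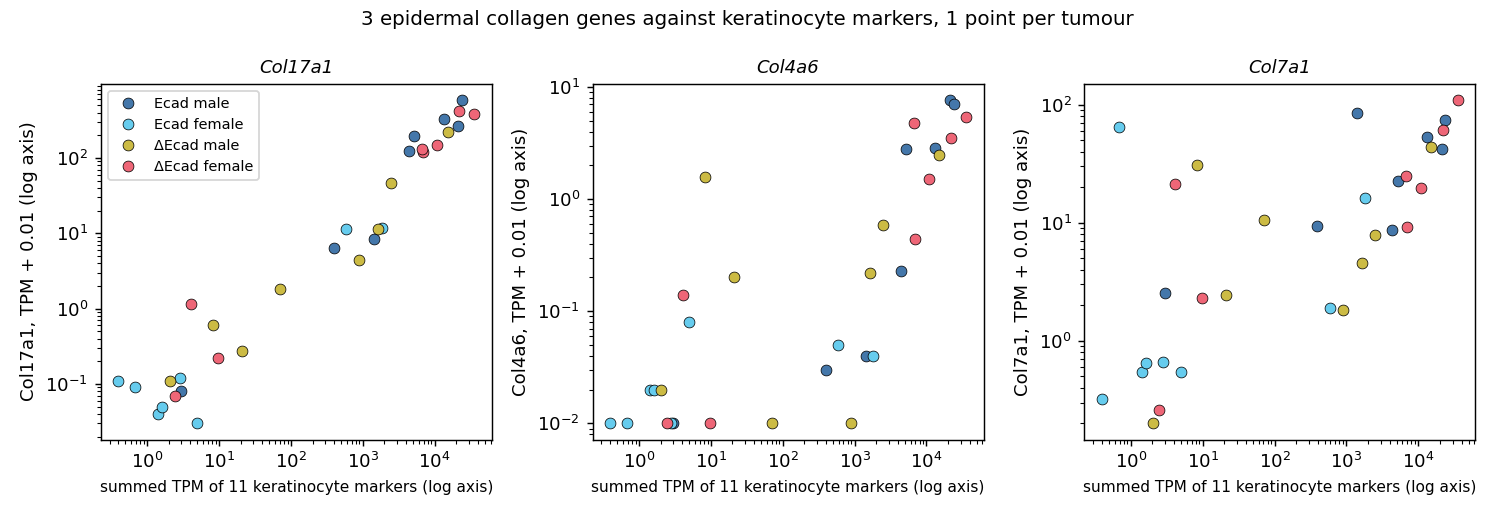
TPM + 0.01 (log axis) of Col17a1, Col4a6 and Col7a1 against the summed TPM of 11 keratinocyte markers (log axis), 1 point per tumour coloured by group. Col17a1 is at 46.5 TPM or more in the 12 tumours with the most keratinocyte RNA and at 11.7 TPM or less in the other 20. Col4a6 is near the floor in most tumours under 2500 TPM of keratinocyte RNA, and Col7a1 has high points at both ends.

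Between ΔEcad and Ecad females, Col4a6 was the only collagen gene called. It rose in ΔEcad females by 6.26 on the log2 scale (SE 1.62, edgeR adjusted p 0.0494). That is 1 of 43 collagen genes tested, beside 1.2% of all 17717 genes called, a share near the background. A call needed both an adjusted p under 0.05 and a log2 fold change beyond 1 in either direction. Col23a1 (log2 fold change 1.85, SE 0.528, edgeR adjusted p 0.0595) and Col17a1 (5.46, SE 1.81, edgeR adjusted p 0.0993) came next and were not called. At an unadjusted p under 0.05 were 9 collagen genes, 20.9% of the 43 beside 15.3% of all genes, and 8 of them were higher in ΔEcad females, beside 11.2% of all genes. They were Col4a6, Col23a1, Col17a1, Col6a6 (3.71), Col25a1 (-2.61), Col6a2 (1.59), Col6a1 (1.65), Col6a5 (2.70) and Col3a1 (1.52 on the log2 scale). The collagen VI genes had 6 of 6 fold changes above 0 with a median of 1.62, beside 48.4% of all genes above 0, and the 11 fibrillar genes 8 above 0 with a median of 1.11. Of the collagen VI genes, Col6a6 was at 3 counts or fewer in 11 of 32 tumours and Col6a5 in 6, so their fold changes rest in part on counts near the floor. The median over the 43 genes was 0.42, beside -0.02 over all genes.

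Much of this moved with ΔEcad female 3. Without it 7 of 43 collagen genes had an unadjusted p under 0.05, beside 16.5% of all genes, a share near the background. Of these, 5 were higher in ΔEcad females, and the share of all genes higher at that threshold is not given here. The collagen VI median was 0.88, with 6 of 6 still above 0, and the fibrillar median 0.12, with 6 of 11 above 0. Col6a1 was then at 0.90, Col6a2 at 0.86 and Col3a1 at 0.54 (edgeR adjusted p 0.487, 0.487 and 0.755). The ΔEcad female mean of Col1a1 went from 954 to 467 TPM, beside 460 TPM in Ecad females. Those of Col5a1 and Col5a2 went from 131 to 41.9 TPM and from 152 to 43.7 TPM, and so from above to below the Ecad means of 57.1 and 48.3 TPM. Col6a6 and Col6a5 stood at 3.88 and 2.87, Col23a1 at 1.45 and Col8a1 at -2.75 without that tumour (edgeR adjusted p 0.0947, 0.213, 0.117 and 0.147).

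The Col4a6 call hung on single tumours. It was lost, with an edgeR adjusted p of 0.0503 to 0.116, when any of 18 of the 32 tumours was left out (Ecad males 1, 2, 4 and 5, Ecad females 1, 2, 3, 4, 6, 7 and 8, ΔEcad males 1, 2 and 5, and ΔEcad females 1, 2, 6 and 7). It was also lost with limma voom (5.76, adjusted p 0.214), with a fibroblast marker score as covariate (4.56, adjusted p 0.553) and with a keratinocyte marker score as covariate (3.02, adjusted p 0.605). Over the alternatives run its adjusted p ranged from 0.000207 (DESeq2, 6.47) to 0.605. With the keratinocyte covariate Col17a1 stood at 1.63 (edgeR adjusted p 0.316). Keratinocyte marker RNA summed to 0.400, 2.23 and 1828 TPM (lowest, median and highest) in Ecad females and to 2.47, 6826 and 35343 TPM in ΔEcad females. Without the 3 tumours that stood apart, Col4a6 was at 6.42 (edgeR adjusted p 0.0321). Col23a1 was called when Ecad male 7, Ecad female 5, or ΔEcad female 4 or 5 was left out (edgeR adjusted p 0.0491, 0.0426, 0.0320 and 0.0338). DESeq2 called 5 collagen genes, Col4a6, Col17a1, Col23a1, Col6a6 and Col25a1, the last lower in ΔEcad females, beside 7.23% of all genes called by DESeq2. A fitted fold change at so few counts depends on the prior count and is no bound.

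Between ΔEcad and Ecad males, edgeR called 0 collagen genes, beside 0% of all genes. At an unadjusted p under 0.05 were 3 (6.98%, beside 10.2% of all genes), each higher in ΔEcad (beside 7.19%), DESeq2 called 1 (Col2a1, 4.82), beside 0.119% of all genes, and the limma fits 0. The 3 were Col9a3 (3.43, SE 1.09, edgeR adjusted p 0.387), Col8a1 (2.86, SE 1.14, 0.436) and Col9a1 (2.87, SE 1.31, 0.473). Col9a1 and Col9a3 encode chains of collagen IX, which coats collagen II fibrils in cartilage. In ΔEcad males Col9a3 had 0.250, 1.12 and 163 TPM (lowest, median and highest), and the highest was the library labelled ΔEcad male 2, the next 7.41 TPM. Without that library the Col9a3 difference was -0.58 (edgeR adjusted p 0.840). Col8a1 was higher over most of the group, with medians of 22.8 TPM in ΔEcad and 3.27 TPM in Ecad males and overlapping ranges of 1.22 to 103 and 0.250 to 17.7 TPM. Network-forming genes had 3 of 3 fold changes above 0, beside 59.1% of all genes. The median over the 43 genes was 0.23, beside 0.11 over all genes. With all tumours, edgeR put Col2a1 at 1.69 (SE 1.24, edgeR adjusted p 0.632), lower than DESeq2 did. Without the library labelled ΔEcad male 2, Col9a1 was at 1.24, Col2a1 at -0.14 and Col8a1 at 2.40 (edgeR adjusted p 0.802, 0.980 and 0.648). At an unadjusted p under 0.05 was then 1 of the 43, higher in ΔEcad, beside 7.64% of all genes. Without all 3 tumours that stood apart, Col8a1 was at 1.76 (edgeR adjusted p 0.626). Above 0 were then 2 of 3 network-forming genes and 0 of 6 collagen VI genes, against 5 of 6 collagen VI genes with those tumours. The median over the 43 genes was -0.18, beside 0.07 over all genes, and 1 of the 43, lower in ΔEcad, had an unadjusted p under 0.05, beside 8.31%.

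Between females and males with Ecad tumours, edgeR called 0 collagen genes, beside 0.0508% of all genes. DESeq2 called 6 (Col4a6, Col17a1, Col23a1, Col6a5, Col6a6 and Col27a1, each lower in females), beside 5.77% of all genes, and the limma fits 0. At an unadjusted p under 0.05 were 9 (20.9%, beside 16% of all genes), and 7 of them were lower in females, beside 10.3% of all genes. Col4a6 differed by -6.60 (SE 1.64, edgeR adjusted p 0.0869), Col17a1 by -5.73 (SE 1.84, 0.122) and Col23a1 by -1.61 (SE 0.524, 0.128). These Ecad females are the same tumours as in the genotype comparison in females, so the estimates of the pair are not independent. The keratinocyte marker RNA moved the same way, with a median of 4801 TPM in Ecad males against 2.23 TPM in Ecad females. In all, 10 of 43 fold changes were above 0, beside 53.9% of all genes, 33 were below 0, all 6 collagen VI genes among them, and the median was -0.24, beside 0.05 over all genes.

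Between females and males with ΔEcad tumours, edgeR called 0 collagen genes, beside 0.0395% of all genes, and DESeq2 and the limma fits called 0, beside 0.135% of all genes for DESeq2. At an unadjusted p under 0.05 were 4 (9.3%, beside 8.81% of all genes), each lower in females (beside 5.49%): Col9a3 (-3.74), Col9a1 (-4.31), Col2a1 (-3.45) and Col10a1 (-2.84 on the log2 scale). The first 3 had edgeR adjusted p values of 0.484, 0.484 and 0.503. All 4 are collagens of cartilage, and all 4 had their highest level of the 32 tumours in the library labelled ΔEcad male 2 (163, 81.9, 10.4 and 19.99 TPM). Without that library Col9a3 stood at 0.27, Col9a1 at -2.69, Col2a1 at -1.62 and Col10a1 at -1.70 (edgeR adjusted p 0.949, 0.676, 0.751 and 0.768). The median over the 43 genes was 0.03, beside -0.06 over all genes, and -0.30 without ΔEcad female 3, beside -0.10. Without that tumour Col8a1 was at -3.29 (edgeR adjusted p 0.520). Acan and Ibsp RNA, markers of cartilage and bone, were highest in the library labelled ΔEcad male 2, at 6.95 and 8.18 TPM. The 9 cartilage and bone markers summed to 27.7 TPM there, against 0.620 to 143 TPM in the other tumours, and the part of such cells in the result was not tested.

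The interaction of genotype and sex, the difference between the genotype effects in females and in males, had 0 collagen genes called by edgeR, beside 0% of all genes. DESeq2 called 3 (Col4a6, Col17a1 and Col25a1), beside 6.91% of all genes, and the limma fits 0. At an unadjusted p under 0.05 were 10 (23.3%, beside 17.7% of all genes). Col4a6 (8.13, SE 2.05, edgeR adjusted p 0.0526) and Col17a1 (7.72, SE 2.38, 0.0771) led, then Col25a1 (-3.87, SE 1.40, 0.130). Without the 3 tumours that stood apart that count was 7 of 43, beside 20% of all genes, and so no longer above the background. Without the library labelled ΔEcad male 2 alone it was 6, beside 16.4%, and without ΔEcad female 3 alone 10, beside 19.9%. Leaving out any of 9 tumours (Ecad males 3, 7 and 8, Ecad female 5, ΔEcad male 3, and ΔEcad females 3, 4, 5 and 8) gave a call for Col4a6, with edgeR adjusted p values of 0.0186 to 0.0468. Col17a1 was called without ΔEcad male 3 (9.51, edgeR adjusted p 0.0262) and Col8a1 without ΔEcad female 3 (-5.61, 0.0348). Col4a6 was also called with RLE size factors (8.22, edgeR adjusted p 0.0494) and without the filter on low counts (8.20, 0.0490). Neither Col4a6 nor Col17a1 was called with the keratinocyte score as covariate, where Col4a6 was at 2.19 (edgeR adjusted p 0.899) and Col17a1 at 2.14 (0.581). Without the 3 tumours that stood apart these genes were at 8.36 (edgeR adjusted p 0.0681) and 7.53 (0.0991), and Col8a1 was at -4.52 (0.0805). The groups differed in keratinocyte RNA as given with the female comparison, and its median was 4801 TPM in Ecad males and 477 TPM in ΔEcad males. The plot of fold changes by comparison shows these few large values apart from the rest of the 43 genes. The group ranges overlapped for every collagen gene in each of the 4 comparisons between groups. The share of all genes with overlapping ranges is not given here, so this has no background.

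**Figure D5:**
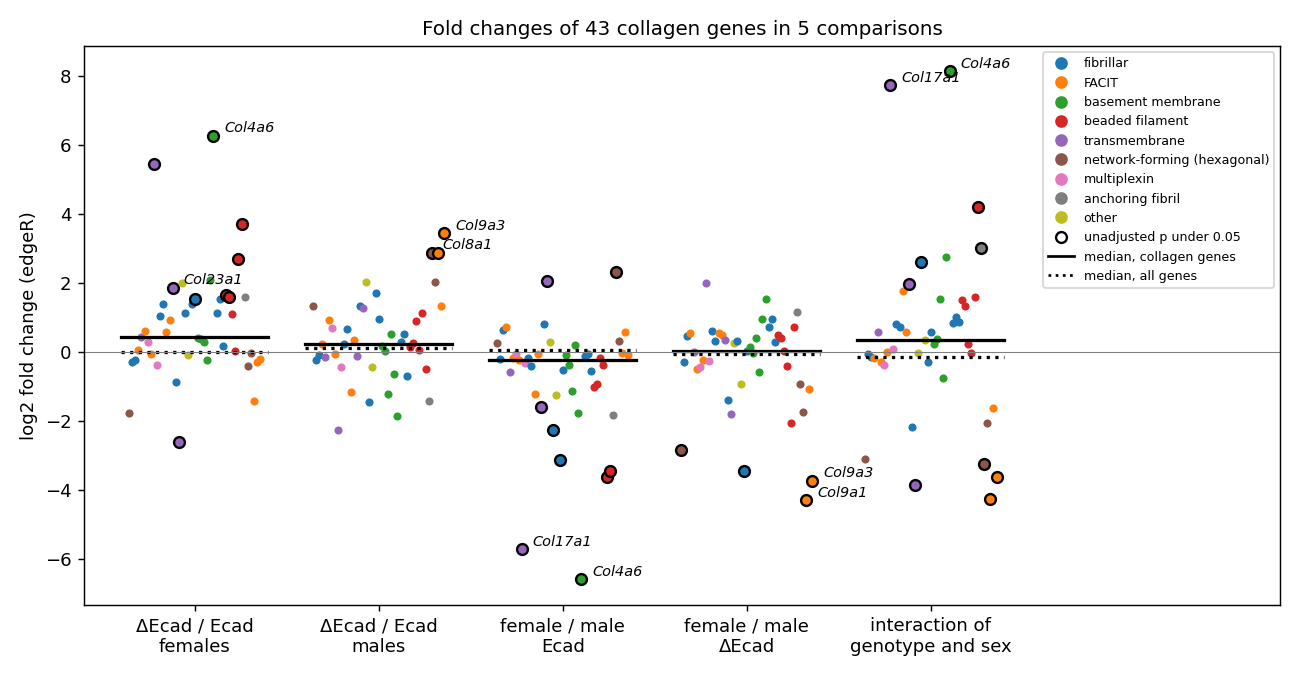
edgeR log2 fold changes of 43 collagen genes (points coloured by class, spread sideways for legibility) in 5 comparisons, with a solid line at their median and a dotted line at the median of all genes. Ringed points have an unadjusted p under 0.05; Col4a6 at 6.26 in the females is the only called gene, and the medians stay between -0.24 and 0.42.

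Genes that make, process and bind collagen were taken from 4 lists of 53 genes, 51 of them tested. edgeR called 0 in every comparison. DESeq2 called 5 between the female genotypes (Adamts2, Ddr2, Dpt, Ogn and Tnxb), 2 between the sexes with Ecad tumours (Dpt and Tnxb), 2 for the interaction (Ogn and Tnxb) and 0 in the others, beside 7.23%, 5.77% and 6.91% of all genes in the first 3 of these. Between the female genotypes 13 genes had an unadjusted p under 0.05 (25.5%, beside 15.3% of all genes), 11 of them higher in ΔEcad (beside 11.2%), led by Itga11, a collagen I receptor subunit (4.05, SE 1.12, edgeR adjusted p 0.0545), and Ogn, the fibril-associated proteoglycan osteoglycin (4.13, SE 1.18, 0.0594). Itga11 was at 1.38 without ΔEcad female 3 (edgeR adjusted p 0.437) and Ogn at 3.12. A count without that tumour, which was highest of 32 for 23 of the 53 genes, is not given here. The folding and modification list had 1 of 21 genes at that threshold, processing and crosslinking 4 of 12, receptors and uptake 4 of 9 and fibril-associated proteins 4 of 9. In males the count was 1 (1.96%, beside 10.2% of all genes), Mrc2, a collagen uptake receptor (1.88, edgeR adjusted p 0.454), with Aspn next (1.61, 0.494). Mrc2 was at 0.36 without the library labelled ΔEcad male 7, and Aspn turned to -0.30 without the 3 tumours that stood apart. Between the sexes it was 7 with Ecad tumours (13.7%, beside 16%), led by Tnxb (-2.89, edgeR adjusted p 0.108) and Dpt (-2.82, 0.139), which both organise fibrils, and 4 with ΔEcad tumours (7.84%, beside 8.81%), led by the crosslinking enzymes Lox (2.75, 0.527) and Loxl2 (-1.48, 0.540). Lox turned to -0.71 without ΔEcad female 3 and was at -0.68 with DESeq2. For the interaction it was 4 (7.84%, beside 17.7% of all genes), led by Tnxb (3.54, edgeR adjusted p 0.0801) and Ogn (4.53, 0.106).

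ΔEcad female 3 had the highest summed collagen level, 14441 TPM, against 405 TPM at the lowest, a median of 2319 and 6689 TPM at the next highest. It was the highest of 32 tumours for 9 collagen genes, Col1a1, Col1a2, Col3a1, Col5a1, Col5a2, Col6a1, Col6a2, Col8a1 and Col23a1. Col1a1 was 12.4-fold, Col5a2 22.5-fold and Col8a1 30.1-fold the median of the other 31. It was the lowest for Col13a1, a transmembrane collagen at 0 counts, where 0 allows up to 3 counts, and for Col14a1, a FACIT at 0.700 TPM. Basement membrane genes were high but not extreme, with Col4a1 at 313 TPM (rank 2) and Col4a2 at 225 TPM (rank 4). Its endothelial markers summed to 0.590 TPM, against 49.3 to 393 TPM in the others, and its macrophage markers to 39.5 TPM, against 291 to 13541. Fibroblast markers were split, with Dcn (2.24 TPM) and Lum (0.110 TPM) lowest of 32 and Pdgfrb (224 TPM) highest. The pericyte and smooth muscle markers summed to 5532 TPM, against at most 562 in the others, through Acta2 (3978 TPM) and Tagln (1526 TPM). Of the other 5 genes of that list, Rgs5 (2.24 TPM), Cspg4 (25.4), Kcnj8 (0.110) and Abcc9 (0.0300 TPM) were lowest of 32, and Myh11 was at 0.110 TPM. Of the 53 genes that make or bind collagen, 23 were highest of 32 there. The share of all genes highest in this tumour is not given here, so the counts of 9 and 23 have no background. Endothelial RNA was thus near 0 and macrophage RNA lowest of 32 in this tumour, markers of stromal cells were split between highest and lowest, and fibrillar collagen RNA was high, so the tumour is called by its label here.

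The other tumours that stood apart had different collagen sets. The library labelled ΔEcad male 7, which had little melanocytic RNA, had the highest fibroblast marker sum (3190 TPM) and the highest Col6a3 (329 TPM), Col6a5 (11.99), Col15a1 (112) and Col24a1 (8.89 TPM), and 0 counts of Col11a1. Ecad male 3 was highest for 7 genes, Col4a2, Col6a4, Col11a1, Col13a1, Col18a1, Col20a1 and Col28a1. ΔEcad male 1 was the lowest of 32 for 11 genes, among them Col3a1 (8.90 TPM), Col4a1 (9.91) and Col6a1 (10.7 TPM). These counts of genes also have no share of all genes beside them.

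Col1a1 and Col4a1 were set beside markers of the cells known to make them. Col1a1 had an r of 0.642 with a score of 10 fibroblast markers (rho 0.618, adjusted permutation p 7.71e-05 and 0.00027), 0.610 without the 2 farthest tumours and 0.721 without ΔEcad female 3. Within groups it was 0.610 in Ecad males, 0.724 in ΔEcad males, 0.759 in Ecad females and 0.0630 in ΔEcad females. The last value includes ΔEcad female 3, with Col1a1 at 4361 TPM and a fibroblast score of 4.58, beside a group mean score of 5.13. An r for the ΔEcad females without that tumour is not given here, so the low value cannot be read as a trait of the group. Col4a1 had an r of 0.0612 with a score of 8 endothelial markers (rho 0.349, adjusted permutation p 0.743 and 0.0582), which was 0.474 without the 2 farthest tumours (adjusted permutation p 0.00906) and 0.533 without ΔEcad female 3 alone (0.00231). That tumour had 313 TPM of Col4a1 with endothelial RNA near 0, so the pooled value rests on it.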

How the data were processed

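RNA of 32 tumours was sequenced from stranded polyadenylated libraries. Per the labels the reads were checked with FastQC 0.11.5 and mapped with STAR to mm10 (GRCm38.p5). The authors deposited raw counts per gene and TPM, and for 996 genes over 2000 counts in every tumour the TPM followed the counts within 0.0698%. Gene symbols came from GENCODE M21 (50376 of 50600 genes, 224 without one), and 28 of the 44 collagen genes overlap another gene, so their counts are uncertain where the strand was not used. Total counts per tumour set the precision, 24036333 to 63923086. Promoter windows (250 bases before to 50 after the start) existed for 35 collagen genes.

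Counts were tested with edgeR 4.0.16 (TMM, filterByExpr by group, robust two-sided quasi-likelihood, 1 coefficient per group, common dispersion 0.624), with Benjamini-Hochberg adjustment over 17717 genes. The filter kept 43 collagen genes and removed Col19a1. The method was tested on simulated data. Scores were mean log2 CPM (prior count 1). Alternatives were RLE size factors, DESeq2 1.42.0, limma 3.58.1 on log2 TPM with a pseudocount of 1 or 0.1 or by voom with sample quality weights, other filters (none, or over 1 CPM in at least 8 tumours), only the tumours compared, no robust estimation, the tumour number as a block, fibroblast or keratinocyte scores as covariates, an adjusted p under 0.1 and each tumour left out. Leaving out ΔEcad female 3 with ΔEcad males 2 and 7 was added after seeing the data. The work ran in R 4.3.3 and in Python 3.11.15 with scipy 1.17.1, matplotlib 3.10.9, pandas 2.3.3 and numpy 2.4.6.

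The collagen genes, classes, marker and pathway lists were chosen with earlier results of these data known. Named were, in each class, up to 3 genes with the highest mean TPM, every gene called, the 3 with the smallest p in each comparison, the collagen IV pairs and the 2 pathway genes with the smallest p in each comparison. Others named were chosen after their values were seen.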

Additional observations from a re-analysis of the deposited data

Results flagged for a closer look

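Within the groups of 8 tumours, 156 sets of values (30 collagen genes and the class sums) were checked for a tumour whose gap to its nearest neighbour on the log2 scale, as a part of the whole range, passed the critical value of Dixon's test at 95%. Chance flags about 1 in 20 groups, and 18 of 156 were flagged.

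ΔEcad male 1 was low for Col1a1 (22.9 TPM, others 211 to 1213), Col3a1 (8.90, others 206 to 1810), Col4a1 (9.91, others 86.7 to 217) and Col4a2 (8.71 TPM, others 53.4 to 182). Its basement membrane sum was 20.2 TPM (others 142 to 439) and its multiplexin sum 15.95 TPM (others 87.3 to 302). Ecad male 1 was low for the basement membrane sum, at 62.4 TPM (others 183 to 472).

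ΔEcad female 3 was high for Col3a1 (2818 TPM, others 83.6 to 435) and low for Col13a1 (0 TPM, others 1.26 to 5.40). ΔEcad female 5 was low for Col8a2 (0.01 TPM, others 0.5 to 2.47). The library labelled ΔEcad male 7 was low for Col4a4 (0.04 TPM, others 1.38 to 26.8).

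The library labelled ΔEcad male 2 was high for Col9a3 (163 TPM, others 0.250 to 7.41), Ecad male 2 for Col2a1 (6.78 TPM, others 0.03 to 0.14), Ecad male 3 for Col20a1 (190 TPM, others 11.48 to 26.6) and ΔEcad male 8 for Col28a1 (7.88 TPM, others 0.550 to 3.54). Ecad female 5 was high for Col13a1 (7.07 TPM, others 0.890 to 2.73) and Col8a2 (6.89 TPM, others 0.02 to 0.22). Ecad female 6 was high for Col26a1 (0.420 TPM, others 0 to 0.06).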

How the results depend on the processing

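Collagen genes called between the female genotypes numbered 3 at an adjusted p under 0.1 and 5 with DESeq2. They were 0 with limma voom, both limma fits on log2 TPM, the filter of over 1 CPM in at least 8 tumours, and the fibroblast or keratinocyte covariate, and 0 to 2 with 1 tumour left out. The count was also 0 with only the tumours compared, where 36 collagen genes were tested and Col4a6 did not pass the filter. DESeq2 called 1 in males and 6 between the sexes with Ecad tumours, where an adjusted p under 0.1 gave 1. For the interaction the count was 2 at an adjusted p under 0.1, 1 with RLE size factors, 3 with DESeq2, 1 without a filter, and 0 to 2 with 1 tumour left out (0 in the other comparisons). The shares of all genes called at an adjusted p under 0.1 are not given here, so the counts at that threshold have no background. Calls over all genes were 213, 0, 9, 7 and 0 in the 5 comparisons, and under other settings 1 to 1281, 0 to 21, 8 to 1023, 0 to 24 and 0 to 1225. With 1 tumour left out they were 1 to 695, 0, 8 to 21, 7 to 8 and 0 to 848. In males Col9a3 reversed to -0.58 without ΔEcad male 2 and to -0.47 without the 3 tumours that stood apart, and Aspn to -0.30 without those 3. Between the sexes with ΔEcad tumours Col9a3 reversed to 0.30 with DESeq2, 0.0935 with limma voom, 0.27 without ΔEcad male 2 and 0.30 without the 3, and Lox to -0.68 with DESeq2, -0.71 without ΔEcad female 3 and -0.42 without the 3. With 1 tumour left out, Col9a3 ranged from -0.58 to 4.37 in males and from -3.93 to 0.27 between the sexes with ΔEcad tumours, and Lox from -0.71 to 3.20. The relation of Col4a3 and Col4a4 turned to -0.115, and that of Col4a1 with the endothelial score rose to 0.474, without the 2 farthest tumours, and the latter to 0.533 without ΔEcad female 3. The cause of these shifts was not tested. Among others, depth limits Col19a1, Col26a1, Col4a6, Col22a1, Col6a6, Col2a1 and Col4a3. They had 3 counts or fewer in 31, 22, 14, 13, 11, 10 and 5 of 32 tumours, in that order.

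Tumour numbers in the labels did not pair the samples: deviations of same-numbered tumours correlated at -0.524 to 0.517, and at most 3 of 8 pairs in any comparison passed 0.1. With the number as a replicate block, 0 collagen genes were called between the female genotypes (Col4a6 6.19, edgeR adjusted p 0.129) and 0 in the other comparisons.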

Other observations

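Col25a1, a transmembrane collagen known from brain, had group medians in the opposite order to Col17a1. It had a lowest, median and highest level of 0.04, 0.125 and 1.86 TPM in Ecad males, 0, 0.59 and 2.22 in ΔEcad males, 0.07, 0.855 and 8.15 in Ecad females and 0.02, 0.2 and 0.61 TPM in ΔEcad females. No edgeR comparison called it, and DESeq2 called it lower in ΔEcad than in Ecad females (-2.58, adjusted p 0.0461). Col25a1 overlaps 5 other genes, so its counts are uncertain.

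RNA of other cell types varied widely too. Markers of skeletal muscle (8 genes) summed to 3.10 to 24244 TPM and those of adipocytes (6 genes) to 3.14 to 2773 TPM. Endothelial sums spanned 49.3 to 393 TPM in the 31 tumours other than ΔEcad female 3.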
